A study of Brachypodium distachyon with 35 samples.

Results

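BdbZIP52, BdbZIP74 and BdbZIP96 are 3 of the 96 genes of the basic leucine zipper (bZIP) family measured in the grass Brachypodium distachyon Bd21-3. They were chosen from the measured values, for a change of at least 2-fold in most of the samples treated with a hormone, with BdbZIP74 higher and BdbZIP52 and BdbZIP96 lower than the control. Their transcripts were quantified by real-time PCR (qPCR) relative to BdGAPD, which encodes a glyceraldehyde-3-phosphate dehydrogenase, in 35 samples, 1 for each treatment and time or organ and 3 of untreated seedlings. The 8 hormone samples were seedlings given 1 mM salicylic acid (SA), 20 µM of the cytokinin 6-BA, 100 µM abscisic acid (ABA) or 100 µM methyl jasmonate (MeJA), and each hormone was sampled at 1 h and 6 h. Other seedlings were kept at 4 °C (cold) or 45 °C (heat), or given 10 mM H2O2, 20% PEG or 200 mM NaCl, for 1 h and 6 h, or given a heavy metal for 6 h and 24 h (Cu at 0.05 mM, Zn at 0.5 mM, Mn at 1 mM, Cd at 0.07 mM or Pb at 0.75 mM). Root, stem, leaf and early spikelet of untreated plants were also sampled. The labels assign the untreated seedlings CK1 as the control of SA, 6-BA, the organs and the environmental treatments other than NaCl 6 h, CK2 as the control of ABA and MeJA, and CK3 as the control of the metals and of NaCl 6 h. The labels give the age as 20 days, or 40 days for the spikelet, and the protocols give 2 weeks and 5 weeks.

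A bZIP protein binds DNA through a basic region and pairs with another bZIP through a leucine zipper, so the set of bZIP proteins present in a cell sets which dimers can form. In Arabidopsis, TGA-type bZIP proteins act with the coactivator NPR1 in the transcription of SA-responsive genes, and bZIP proteins of the ABF type bind the ABA-responsive element of ABA-induced genes. Many short bZIP proteins of flowering plants are encoded by genes without introns. The study's annotation, whose genome build is not named, places BdbZIP52 (bradi3g00300) on chromosome 3 from 93061 to 94218, with 1 intron and a predicted protein of 190 amino acids. BdbZIP74 (bradi4g00810) lies on chromosome 4 from 415064 to 415796 and has no intron, like 15 of the 96 genes, and its predicted protein has 191 amino acids. Both belong to intron pattern h of the basic and hinge region, which 27 genes share. BdbZIP96 (bradi5g23340) lies on chromosome 5 from 25312831 to 25315109 and has 5 introns, pattern e, which 13 genes share, and a predicted protein of 388 amino acids. Its Arabidopsis homologues in the annotation are TGA factors.

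The Ct counts the cycles a reaction needs to reach a set fluorescence, and each cycle fewer means roughly 2-fold more cDNA at the start. The level used here is the Ct of BdGAPD minus the Ct of the gene in the same sample, on the log2 scale, and the log2 change is the level in a sample minus that in its control. A log2 change of 1 or more is 2-fold or higher, and one of -1 or less is 0.5-fold or lower. Each treatment and time has 1 sample, so no test was made between a treatment and its control. The 3 untreated seedling samples, which the labels do not call replicates, had a level of -14.16 ± 0.66 (SD, n = 3) for BdbZIP52, -15.56 ± 0.57 for BdbZIP74 and -11.43 ± 1.02 for BdbZIP96. As a measure of the error of the wells, 8 pairs of BdbZIP genes with identical primers gave an SD of 0.97 for a single log2 change over 27 treated samples, an estimate that covers neither the BdGAPD well, common to both genes of a pair, nor differences between plants. Over the 8 hormone samples alone this SD was 0.70. The direction given here is that of the Ct values. The normalized values deposited by the authors ran the other way in all 8 hormone samples, where they rose with the Ct of the gene.

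BdbZIP52 was lower than its control in 6 of the 8 hormone samples by at least 2-fold, at both times of SA and 6-BA and at 6 h of ABA and MeJA. The Ct of BdbZIP52 was 31.43 in CK1, 33.85 and 33.50 at 1 h and 6 h of SA, and 33.56 and 34.71 at 1 h and 6 h of 6-BA. All 4 samples crossed the threshold later than CK1, while BdGAPD differed from CK1 by between -0.08 and 0.34 cycles in them. The log2 change was -2.08 and -1.91 with SA and -2.09 and -3.36 with 6-BA, which is 0.27-fold to 0.10-fold of CK1. Each of these 4 values was past 2-fold and therefore past 1 SD of the wells, which follows from how the gene was chosen. The last was the lowest of the 96 genes in that sample, given as a description. Of the 96 genes, 21.9% were 0.5-fold or lower at 1 h of SA, 26.0% at 6 h of SA, 13.5% at 1 h of 6-BA and 22.9% at 6 h of 6-BA.

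With ABA and MeJA, BdbZIP52 was above the control at 1 h and below it at 6 h. Its Ct was 29.83 in CK2, 28.41 and 33.63 at 1 h and 6 h of ABA, and 30.59 and 34.60 at 1 h and 6 h of MeJA. This gave log2 changes of 0.43 at 1 h and -1.39 at 6 h of ABA, and 1.23 at 1 h and -2.05 at 6 h of MeJA. The 1 h value of ABA was within 1 SD of the wells, and it was -0.15 against CK1. The other 3 were past 2-fold and therefore past 1 SD, and the 1 h value of MeJA was -0.76 without the reference gene. At 6 h of MeJA BdbZIP52 was again the lowest of the 96 genes. The shares of all genes at 0.5-fold or lower were 9.38% at 1 h and 8.33% at 6 h of ABA, and 2.08% at 1 h and 8.33% at 6 h of MeJA. In the direction that BdbZIP52 took at 1 h of MeJA, 24.0% of all genes were at least 2-fold higher, and BdbZIP52 was 16th from the top.

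BdbZIP74, the intronless gene, was higher than its control in all 8 hormone samples and at least 2-fold higher in 6. Its Ct was 32.82 in CK1, 31.52 and 31.58 at 1 h and 6 h of SA, and 31.67 at both times of 6-BA. All 4 samples crossed the threshold earlier than CK1 and lay close to each other. The log2 change was 1.64 and 1.40 with SA and 1.19 and 1.07 with 6-BA, which is 3.12-fold to 2.10-fold. Of all genes, 22.9% were at least 2-fold higher at 1 h of SA, 17.7% at 6 h of SA, 31.2% at 1 h of 6-BA and 24.0% at 6 h of 6-BA. BdbZIP74 was 13th and 12th from the top with SA and 24th and 21st with 6-BA.

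Against CK2, BdbZIP74 had a log2 change of 0.29 at 1 h and 3.04 at 6 h of ABA, and of 0.91 at 1 h and 1.81 at 6 h of MeJA. Its highest hormone value was at 6 h of ABA, 8.22-fold, where it ranked 6th of the 96 genes. Neither value at 1 h reached 2-fold. The value of ABA was within 1 SD of the wells, and that of MeJA was past the 0.70 of the hormone samples but not the 0.97 of all treated samples. The shares of all genes at least 2-fold higher were 8.33% at 1 h and 24.0% at 6 h of ABA, and 24.0% at 1 h and 19.8% at 6 h of MeJA. The Ct of BdbZIP74 itself went from 31.72 in CK2 to 30.44 and 31.09 with ABA and 32.80 and 32.63 with MeJA. The Ct of BdGAPD was 15.72 in CK2, 14.73 and 18.13 at 1 h and 6 h of ABA, and 17.71 and 18.44 at 1 h and 6 h of MeJA. Without the reference gene the log2 change of BdbZIP74 was 1.28 and 0.63 with ABA but -1.08 and -0.91 with MeJA. Its direction with MeJA thus depends on correcting for a reference. The median of all genes without a reference was lower still with MeJA, -1.645 at 1 h and -2.515 at 6 h. With BdGAPD the MeJA values of BdbZIP74 lay 0.565 and 1.605 above the median of the 96 genes. At 1 h its direction depends on the control too, since against CK1 the values were -0.79 with ABA and -0.17 with MeJA.

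BdbZIP96, the TGA-type gene, was at least 2-fold lower than its control in 5 of the 8 hormone samples, at 6 h of SA, both times of 6-BA, and 1 h of ABA and MeJA. Its Ct was 29.16 in CK1, 30.40 and 30.43 at 1 h and 6 h of SA, and 31.08 and 31.17 at 1 h and 6 h of 6-BA. Its log2 changes were -0.90 and -1.11 with SA and -1.88 and -2.09 with 6-BA. The SA values lie close to the threshold on either side of it and close to 1 SD of the wells, and 6-BA gave lower values than SA at both times. Of all genes, 21.9% were 0.5-fold or lower at 1 h and 26.0% at 6 h of SA, where BdbZIP96 was 23rd and 22nd from the lowest. With 6-BA the shares were 13.5% at 1 h and 22.9% at 6 h, and BdbZIP96 was the third and the 7th lowest of the 96 genes.

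With ABA and MeJA, BdbZIP96 was far below the control at 1 h and above it at 6 h. Its Ct was 28.25 in CK2, 29.45 and 29.74 at 1 h and 6 h of ABA, and 32.19 and 30.45 at 1 h and 6 h of MeJA. Relative to CK2 this was -2.19 at 1 h and 0.92 at 6 h of ABA, and -1.95 at 1 h and 0.52 at 6 h of MeJA. At 1 h it was the lowest of the 96 genes with either hormone, where 9.38% of all genes with ABA and 2.08% with MeJA were 0.5-fold or lower. At 6 h the value of ABA was past the SD of 0.70 of the hormone samples but not that of 0.97, and the value of MeJA was past neither. Without the reference gene both 6 h values were negative, -1.49 and -2.20, so the direction of BdbZIP96 at 6 h depends on correcting for a reference. The median of all genes without a reference was lower still at 6 h, -2.105 with ABA and -2.515 with MeJA. With BdGAPD the 6 h values of BdbZIP96 lay 0.615 and 0.315 above the median of the 96 genes. Its direction depends on the control too, since against CK1 the values at 6 h were -0.35 with ABA and -0.75 with MeJA.

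**Figure D1:**
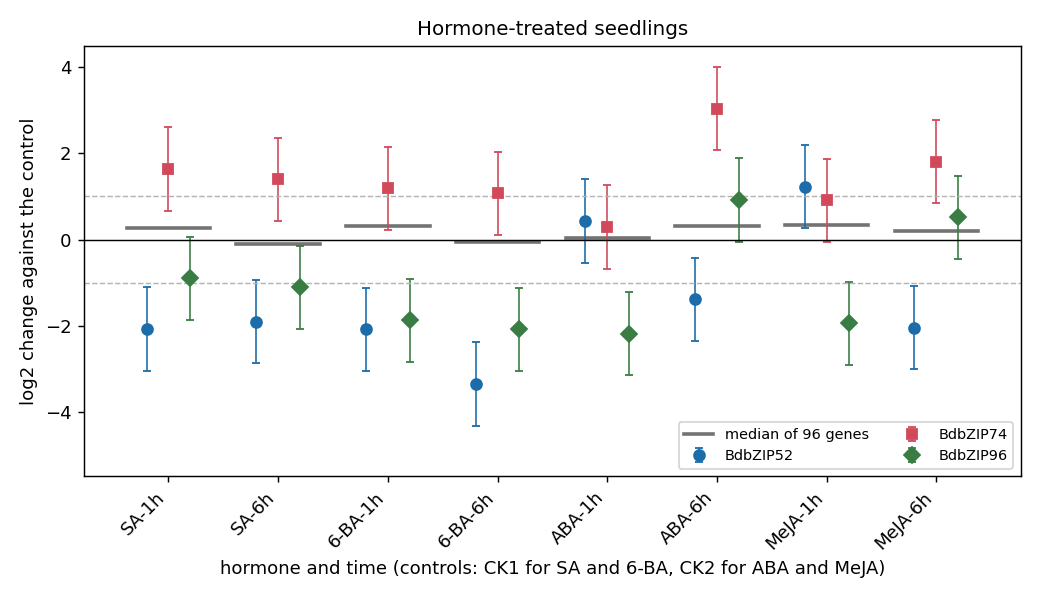
The plot of log2 change by hormone and time shows BdbZIP52 (circles), BdbZIP74 (squares) and BdbZIP96 (diamonds) in the 8 hormone samples, with bars of 1 SD of the wells (0.97), grey bars for the median of the 96 genes and dashed lines at 2-fold. BdbZIP74 is above 0 in all 8 samples, BdbZIP52 is above 0 at 1 h of ABA and MeJA and BdbZIP96 at 6 h of both.

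The levels can also be set against all 3 untreated samples at once. BdbZIP52 lay below all 3 in 6 hormone samples and above all 3 in 1, BdbZIP74 lay above all 3 in 6, and BdbZIP96 lay below all 3 in 4, with its SA samples within their range.

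Other genes met the same counts. BdbZIP50 was at least 2-fold higher in all 8 hormone samples, although BdbZIP51, listed with the same primers, was so in 3, with a median log2 change of 0.00 against 2.19. The gene BdbZIP1 in 7, and BdbZIP2 and BdbZIP63 in 6 like BdbZIP74, with 7 genes at 5 and 7 at 4. In the other direction no gene passed BdbZIP52 with its 6 samples. BdbZIP10, BdbZIP29, BdbZIP34 and BdbZIP40 were at 0.5-fold or lower in 5 samples like BdbZIP96, and 7 genes were so in 4. A change of at least 2-fold upward in 5 or more of the 8 samples was found for 12.5% of the genes, and one to 0.5-fold or lower for 6.25%. The median log2 change over the 8 samples was -1.98 for BdbZIP52, the lowest of the 96 genes, -1.50 for BdbZIP96, the third lowest, and 1.29 for BdbZIP74, the 10th highest, against 0.18 as the median over all genes.

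The difference between the 2 times of a hormone needs no control sample, but it comes from the samples on which the genes were chosen and is given as a description. With SA the 3 genes differed between 6 h and 1 h by between -0.24 and 0.17 on the log2 scale, and with 6-BA BdbZIP74 and BdbZIP96 by -0.12 and -0.21, all within 1 SD of the wells (0.97 for such a difference too). BdbZIP52 was lower at 6 h than at 1 h of 6-BA, with a log2 difference of -1.27, the 20th lowest of the 96 genes. Without a reference gene this difference was -1.15. With the median Ct of the 96 genes as the reference it was -0.455, within 1 SD of the wells.

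With ABA and MeJA the times differed in opposite directions. The level of BdbZIP52 went from -13.68 at 1 h to -15.50 at 6 h of ABA and from -12.88 to -16.16 with MeJA, log2 differences of -1.82 and -3.28. These were the third lowest and the lowest differences among the 96 genes. The level of BdbZIP96 went from -14.72 to -11.61 with ABA and from -14.48 to -12.01 with MeJA, log2 differences of 3.11 and 2.47, the 5th and the 4th highest of the 96 genes. For BdbZIP74 the differences were 2.75 with ABA and 0.90 with MeJA, the second within 1 SD of the wells. The median difference of the 96 genes was 0.28 with ABA and -0.05 with MeJA.

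BdGAPD itself crossed the threshold 3.40 cycles later at 6 h than at 1 h of ABA and 0.73 cycles later with MeJA. Without it the ABA difference was -5.22 for BdbZIP52, -0.65 for BdbZIP74 and -0.29 for BdbZIP96. The higher level of the last 2 genes at 6 h of ABA thus depends on correcting for a reference, but not on BdGAPD alone. With the median Ct of the 96 genes as the reference the ABA differences were -2.15, 2.42 and 2.78 in the same order. With MeJA the difference without a reference gene was -4.01 for BdbZIP52, 0.17 for BdbZIP74 and 1.74 for BdbZIP96. BdbZIP52 was thus lower at 6 h with both hormones and BdbZIP96 higher at 6 h of MeJA with or without the reference gene.

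**Figure D2:**
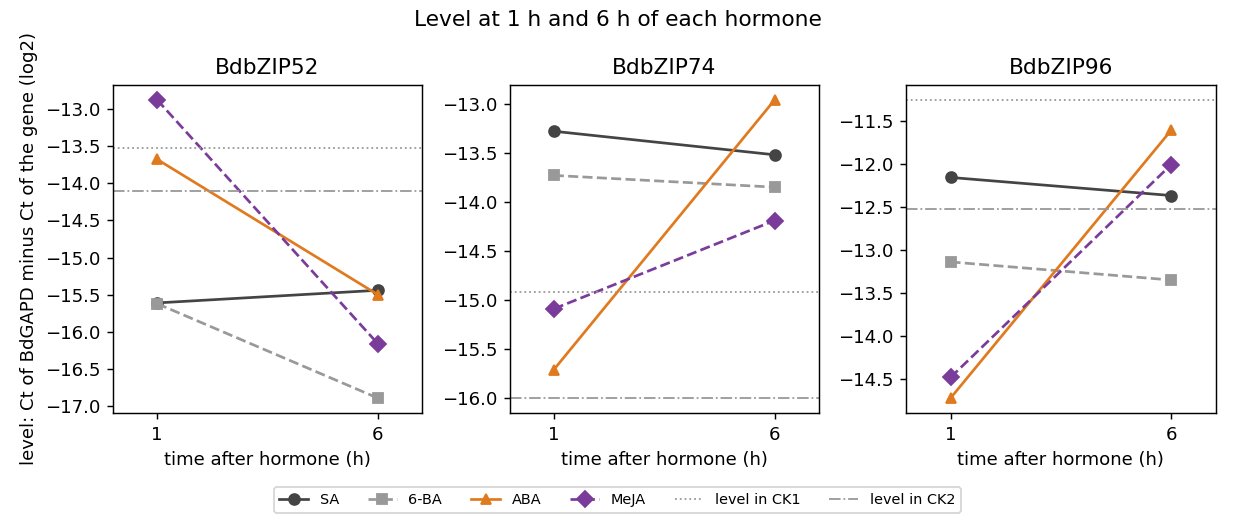
The plot of level against time shows the Ct of BdGAPD minus the Ct of each gene (log2) at 1 h and 6 h of the 4 hormones, with the levels in CK1 and CK2 as horizontal lines. The lines of ABA and MeJA go down for BdbZIP52 and up for BdbZIP96, while those of SA are nearly flat for all 3 genes.

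Under the environmental treatments BdbZIP52 and BdbZIP96 were mostly below their control and BdbZIP74 was near or above it. PEG 1 h was left out, because its Ct column is identical to that of H2O2 6 h in all 97 rows, which leaves 9 samples. Over all genes, 19.0% of the values in these samples were at least 2-fold higher and 30.9% were 0.5-fold or lower.

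BdbZIP52 was at 0.5-fold or lower in 7 of the 9 samples. Heat gave its lowest value of all 27 treated samples, a log2 change of -4.82 at 1 h, or 0.04-fold of CK1, which was the lowest of the 96 genes, and -2.70 at 6 h. The Ct at 1 h of heat was 35.98, late enough for the value to be less certain. H2O2 gave -2.14 and -2.47 at 1 h and 6 h, PEG -1.84 at 6 h, and cold -0.58 and -1.50 at 1 h and 6 h. NaCl gave 1.13 at 1 h against CK1 and -3.25 at 6 h against CK3, where the median of the 96 genes was also low, at -2.02. Without the reference gene the directions of cold at 1 h (1.91), H2O2 at 1 h (0.17) and NaCl at 1 h (-0.43) were the opposite ones, and the value of NaCl at 6 h was -0.43, no longer past 2-fold. The Ct at 6 h of NaCl, 35.36, was also late.

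BdbZIP74 had log2 changes of 1.05 and 1.46 at 1 h and 6 h of H2O2 and of 1.60 at 6 h of NaCl, and these 3 were its only environmental values of at least 2-fold. NaCl at 6 h is set against CK3, and against CK1 it gave 0.77, under 2-fold. PEG at 6 h gave 0.97, just under the threshold. Cold gave -0.03 and -0.01, heat -0.50 and 0.58, and NaCl at 1 h 0.43, all within 1 SD of the wells. With BdGAPD as the reference no environmental sample had it at 0.5-fold or lower. Without the reference gene cold at 1 h was 2.46 and NaCl at 1 h was -1.13, both past 2-fold. The values of H2O2 (3.36 and 2.68) and of NaCl at 6 h (4.42) stayed past 2-fold upward, and 7 of the 9 values were above 0.

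BdbZIP96 was below its control in all 9 samples and at 0.5-fold or lower in 6 of them. Its lowest values were those of heat, -2.66 at 1 h and -2.26 at 6 h. NaCl gave -1.75 at 1 h against CK1 and -1.47 at 6 h against CK3, and the latter was -0.72 against CK1 and 1.35 without the reference gene. H2O2 gave -1.27 and -0.78, PEG at 6 h -1.30, and cold -0.90 and -0.61. Its value at 6 h of NaCl was above the median of the 96 genes in that sample. Without the reference gene 5 of the 9 values were below 0, and the median went from -1.30 to -0.17.

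The metals separated the 3 genes in another way. Over all genes, 39.4% of the values at 6 h and 54.6% at 24 h of the 5 metals were 0.5-fold or lower, and 15.0% and 10.8% were at least 2-fold higher. BdbZIP96 was below CK3 in all 10 samples and at 0.5-fold or lower in 7. CK3 had its highest level among the 3 controls, and against CK1 7 samples were below 0 and 6 at 0.5-fold or lower, with Mn at both times (0.14 and 0.46) and Cd at 6 h (0.10) above 0. Pb gave its lowest values, a log2 change of -4.0 at 6 h, where it was the second lowest of the 96 genes, and -3.49 at 24 h. Zn gave -2.60 and -2.68, Cu -1.98 and -1.43, Cd -0.65 and -2.03, and Mn -0.61 and -0.29. Its Ct at 6 h of Pb was 37.40, and BdGAPD was also late there, at 22.89 against 20.08 in CK3. Without the reference gene 7 of its 10 metal values were below 0.

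BdbZIP52 differed by metal. Cu gave a log2 change of -2.31 at 6 h and -3.19 at 24 h, at late Ct values of 38.02 and 36.36, and Mn gave -1.52 and -0.90. Cd gave 2.79 at 6 h, or 6.92-fold, and 0.72 at 24 h, and Pb gave 1.64 and 0.14. Zn gave -0.34 and 0.19. The gene's own Ct was 34.93 in CK3, 35.30 and 36.17 with Cd, and 36.10 and 35.41 with Pb, so that its values above 0 with these metals come with a BdGAPD Ct of 20.70 to 23.24. Without the reference gene all 4 of the Cd and Pb values were below 0, those of Zn were 1.51 and 1.61 and those of Mn 0.25 and 1.04, while Cu stayed below 0. Against CK1 the values were 1.47 and -0.60 with Cd and 0.32 and -1.18 with Pb.

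BdbZIP74 was 2-fold higher with no metal. Its log2 change was -2.65 at 24 h of Cu and -1.08 at 24 h of Mn. In the other 8 samples it was between -0.68 and 0.23 against CK3, within 1 SD of the wells. The values at 24 h of Cu and Mn were -0.89 and 0.86 without the reference gene, neither at 0.5-fold or lower. Against CK1 BdbZIP74 was below 0 in all 10 metal samples and at 0.5-fold or lower in 7, with a median of -1.26. The small changes with most metals thus depend on the control. Its Ct was 35.83 in CK3 and reached 39.59 at 6 h of Cd, near the 40 cycles of the run.

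**Figure D3:**
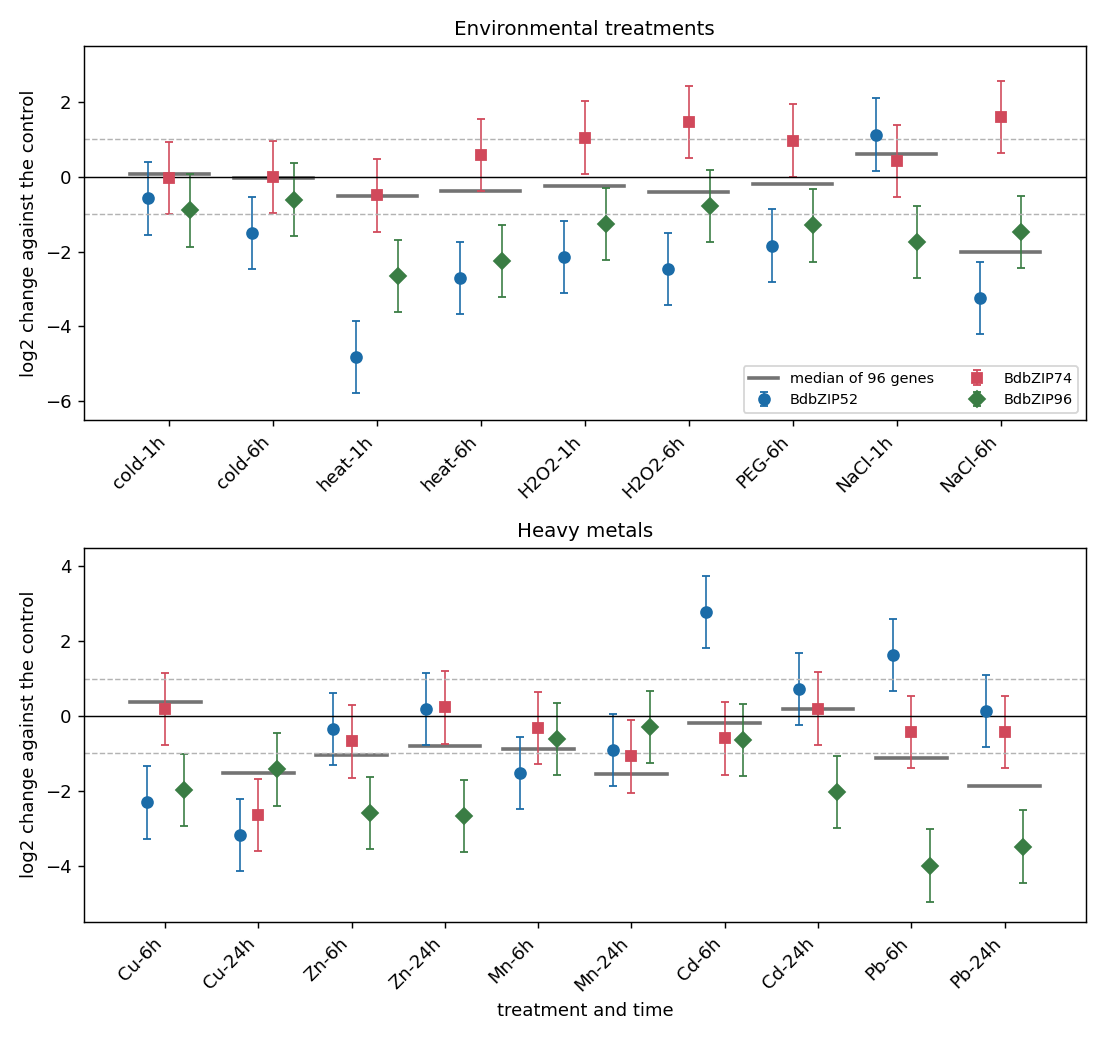
The plot of log2 change by stress and metal shows the 3 genes in the 9 environmental samples (top) and the 10 metal samples (bottom), with bars of 1 SD of the wells (0.97), grey bars for the median of the 96 genes and dashed lines at 2-fold. BdbZIP52 reaches -4.82 at 1 h of heat and 2.79 at 6 h of Cd, and BdbZIP96 is below 0 in all 19 samples.

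In the organs all 3 genes had their highest level in leaf. CK1 had BdbZIP52 at a level of -13.53, and leaf had it at -8.86, spikelet at -10.82, stem at -10.91 and root at -12.34. BdbZIP74 was at -14.92 in CK1, and leaf had it at -10.30, spikelet at -12.24, stem at -12.64 and root at -13.49. BdbZIP96 was at -11.26 in CK1, and leaf had it at -8.98, stem at -10.78, spikelet at -10.98 and root at -12.03. For each gene the order was leaf first, root last, and stem and spikelet between them, and stem and spikelet differed by less than 1 SD of the wells.

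The log2 change against CK1 ran from 1.19 in root to 4.67 in leaf for BdbZIP52 and from 1.43 in root to 4.62 in leaf for BdbZIP74, so both were at least 2-fold higher in all 4 organs. Over all genes, 36.7% of the organ values were at least 2-fold higher and 23.4% were 0.5-fold or lower. For BdbZIP96 it was -0.77 in root, 0.48 in stem, 0.28 in spikelet and 2.28 in leaf. BdGAPD had its latest Ct in leaf (19.11), with 17.20 in spikelet, 16.85 in stem and 16.54 in root. Over the 4 organs the Ct of the genes themselves ran only from 27.76 to 28.88 for BdbZIP52, from 29.41 to 30.03 for BdbZIP74 and from 27.63 to 28.57 for BdbZIP96, so that the position of leaf follows that of BdGAPD.

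**Figure D4:**
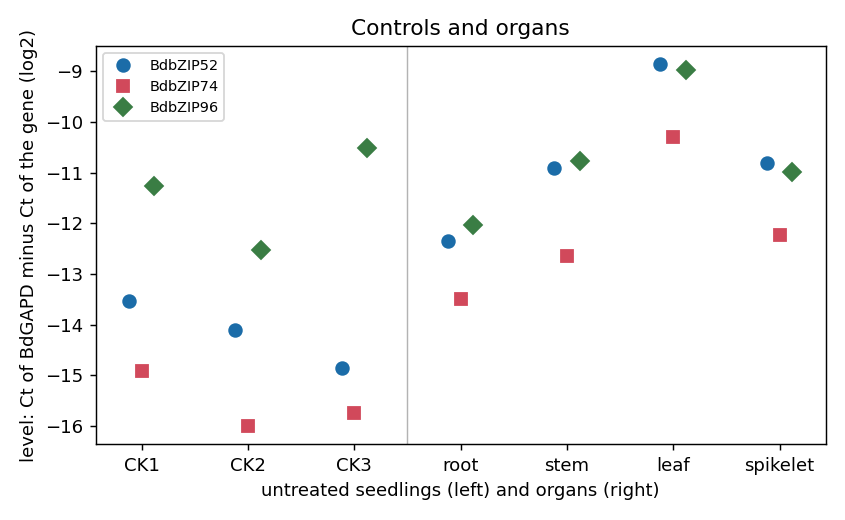
The plot of level in controls and organs shows the Ct of BdGAPD minus the Ct of each gene (log2), 1 sample each, for the 3 untreated seedling samples (left) and the 4 organs (right). Each gene is highest in leaf and, among the organs, lowest in root, and BdbZIP52 and BdbZIP74 are above all 3 controls in each organ.

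Over the 34 samples used, the level of BdbZIP52 ran from -18.35 at 1 h of heat to -8.86 in leaf, that of BdbZIP74 from -18.40 at 24 h of Cu to -10.30 in leaf, and that of BdbZIP96 from -14.72 at 1 h of ABA to -8.98 in leaf. When the levels of a gene were put in order, most neighbours differed by less than 1 SD of the wells. Leaf stood apart from the next sample by 1.96 for BdbZIP52, 1.94 for BdbZIP74 and 1.53 for BdbZIP96. The only other gaps over 1 SD lay below stem for BdbZIP52 (1.15) and above 24 h of Cu for BdbZIP74 (1.57). The family as a whole was also high in leaf. Its median against CK1 stood at 1.74 there, 0.19 in stem and -0.055 in spikelet. Measured from this median, BdbZIP52 was at 2.93 in leaf and 2.765 in spikelet, BdbZIP74 at 2.88 and 2.735, and BdbZIP96 at 0.54 and 0.335. Leaf and spikelet then differed by less than 1 SD of the wells for each gene. The 3 controls differed by 1.32 for BdbZIP52, 1.08 for BdbZIP74 and 2.02 for BdbZIP96, in each case by more than 1 SD of the wells. BdbZIP96 was lower in CK2 (-12.53) than in CK1 (-11.26) and CK3 (-10.51).

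The genes most like each member were found by Pearson's r of the log2 change over the 27 treated samples, each sample centred on the median of the 96 genes, as a description, since the samples share controls and a reference gene. For BdbZIP52 these were BdbZIP14 (r = 0.75), BdbZIP76 (0.67) and BdbZIP72 (0.65), and over the 19 samples without hormones r was 0.73, 0.62 and 0.62. BdbZIP14 and BdbZIP76 have no intron, and their median log2 changes over the hormone samples were -1.22 and -1.18, while that of BdbZIP72 was 0.34. For BdbZIP74 they were BdbZIP39 (0.58), BdbZIP86 (0.42) and BdbZIP75 (0.39), and for BdbZIP96 BdbZIP35 (0.51), BdbZIP45 (0.41) and BdbZIP48 (0.40), of which BdbZIP45 and BdbZIP48 are also of the TGA type. Without hormones r was 0.60, 0.50 and 0.27 for the genes like BdbZIP74 and 0.52, 0.57 and 0.50 for those like BdbZIP96. Among the members, r was -0.20 between BdbZIP52 and BdbZIP74, -0.11 between BdbZIP52 and BdbZIP96 and 0.33 between BdbZIP74 and BdbZIP96. Over the 19 samples without hormones these were -0.06, -0.07 and 0.22.

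BdbZIP96 had the lowest median hormone change of the 14 TGA-type genes, whose values ran in both directions. At either time of SA 4 of the 14 (28.6%) were at least 2-fold higher and 3 (21.4%) at 0.5-fold or lower, against 22.9% and 21.9% of all genes at 1 h and 17.7% and 26.0% at 6 h. Over the 8 hormone samples their median was 0.09 against 0.18 for all genes. BdbZIP34 was next lowest (-1.23), and BdbZIP24 (1.48) and BdbZIP81 (1.40) were highest. BdbZIP62, which the study's synteny table pairs with BdbZIP96 as a duplicate, had log2 changes of 0.13 and -1.11 with SA and -0.13 and -1.99 with 6-BA at 1 h and 6 h, so at 6 h of both hormones its values were close to those of BdbZIP96. With ABA it had 0.71 and 1.51 and with MeJA 1.17 and 1.62, above the control also at 1 h, where BdbZIP96 was the lowest gene.

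BdbZIP74 had the second highest median hormone change of the 15 intronless genes, after BdbZIP44 (1.62), and BdbZIP40 (-1.24) and BdbZIP14 (-1.22) had the lowest. At 6 h of ABA 5 of the 15 (33.3%) were at least 2-fold higher and 1 (6.67%) was at 0.5-fold or lower, against 24.0% and 8.33% of all genes. At 1 h of SA 3 (20.0%) were at least 2-fold higher and 6 (40.0%) at 0.5-fold or lower, against 22.9% and 21.9% of all genes. The counts at 6 h of SA were 3 (20.0%) and 4 (26.7%), against 17.7% and 26.0% of all genes. Those at 6 h of MeJA were 8 (53.3%) and 4 (26.7%), against 19.8% and 8.33% of all genes. BdbZIP52 had the lowest median of the 12 pattern h genes with introns, ahead of BdbZIP88 (-1.20), while BdbZIP63 (1.09) and BdbZIP11 (0.61) had the highest. Of the 8 genes with an ABA-type homologue, 5 (62.5%) were at least 2-fold higher at 6 h of ABA, against 24.0% of all genes, and none was at 0.5-fold or lower, while at 1 h none passed either threshold. The list median at 6 h was 1.14 against 0.31 for all genes, and without the reference gene it was -1.27 against -2.10. Its sign thus depends on correcting for a reference, while its position above the median of all genes does not. Over the 8 hormone samples BdbZIP93 (0.94) and BdbZIP72 (0.34) of this list had the highest medians and BdbZIP83 (-0.61) and BdbZIP35 (-0.36) the lowest.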

How the data were processed

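The authors deposited 1 Ct value per gene and sample (no normalization), normalized expression as a ratio to the reference gene, and fold changes as a ratio to a control. Per the labels, cDNA was made from 3 µg of total RNA, diluted 20 times and run for 40 cycles with SYBR Green, and the qPCR was repeated 3 times. How the repeats were combined is not given in the sources used here. A Ct carries no count, so no depth is known. The deposited fold changes are the authors' own comparison and served only to join wells to genes, since all 28 values of each gene were found in 1 well and at most 2 of them in any other. The normalized table was used as an alternative and its organ rows follow another order. In 85 of 86 rows that could be matched to the Ct table within 0.1, the organ values were those of another gene, whereas in the Ct table genes with identical primers differed by a median of 0.22 in the organs, against 1.61 for all pairs of genes.

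The log2 change was -ΔΔCT against BdGAPD and the control in the labels, with thresholds of 2-fold and 0.5-fold as in the methods and a late Ct set at 35. No test was made, as there is 1 sample per treatment and time. The arithmetic was tested on simulated Ct values. The members, gene lists and alternatives were chosen with earlier results of these data known. Named genes are the members, BdGAPD, the 3 genes most like each member, the 2 highest and 2 lowest genes of each list, and those near the limit of the choice. BdbZIP62 was named for its pairing with BdbZIP96. Python 3.11.15, numpy 2.4.6, pandas 2.3.3 and matplotlib 3.10.9 were used.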

Additional observations from a re-analysis of the deposited data

Results flagged for a closer look

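For 2 of the genes, samples of ABA and MeJA moved in opposite directions at the 2 times against the same control, CK2. The log2 change of BdbZIP52 was 0.43 and 1.23 at 1 h and -2.05 and -1.39 at 6 h, a difference of medians of -2.55. That of BdbZIP96 was -2.19 and -1.95 at 1 h and 0.52 and 0.92 at 6 h, a difference of 2.79. The hormones also stood apart from each other at 1 of the times. At 1 h BdbZIP52 was above its control with ABA and MeJA and below it with SA and 6-BA (-2.09 and -2.08), a difference of medians of 2.92. With CK1 as the control of all 4 samples, chosen after seeing the data, ABA gave -0.15 and MeJA 0.65, and the difference was 2.33. At 6 h BdbZIP96 was above its control with ABA and MeJA and below it with SA and 6-BA (-2.09 and -1.11), a difference of 2.32. Against CK1 all 4 samples were below the control, with -0.35 for ABA and -0.75 for MeJA, and the difference was 1.05, and without the reference gene it was -0.20. None of these 4 differences was tested, as each rests on 2 samples against 2 with no replicate. SA and 6-BA were set against CK1 and ABA and MeJA against CK2, so hormone and control cannot be told apart in the last 2.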

How the results depend on the processing

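The values rest on 1 deposited Ct per gene and sample and on 1 reference gene, whose Ct ran from 14.73 to 23.24, and the spread between plants under a treatment is not known. No paired analysis was possible because each treatment and time has 1 sample and the labels give no replicate numbers. A value was taken as unchanged when it moved by less than 1 SD of the wells (0.97), and a count within 1.5 times. The alternative with the authors' fold changes was not run, as they are the authors' own comparison, and BdbZIP74 has no metal value without late Ct, since its Ct in CK3 was late.

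Of 95 alternative medians without those that left out 1 treatment or organ, 81 were unchanged, 8 moved and 6 reversed. With the deposited normalized expression the median of BdbZIP52 was 2.29 over the hormones, 1.27 over the environmental treatments and -0.70 over the organs. That of BdbZIP74 was -1.09, -1.36 and 0.40, and that of BdbZIP96 was 1.72, 0.17 and -2.78. The counts of hormone samples past 2-fold in the gene's direction were then 1 for BdbZIP52, 1 for BdbZIP74 and 0 for BdbZIP96. In that table the values rise with Ct in all 8 hormone samples and in 0 of the 10 metal samples. The environmental values also rise with Ct, but only loosely at 6 h of NaCl, where r with the log2 change used here was -0.29. The organ rows of that table are in another order. With the earlier time alone the hormone median of BdbZIP52 was -0.83, and with the later time alone that of BdbZIP96 was -0.30. With no reference gene the environmental median was -1.06 for BdbZIP52 and -0.17 for BdbZIP96, and BdbZIP96 was past 2-fold in 8 hormone samples. With CK1 as the control of every sample the metal median of BdbZIP52 was -1.42. A 4-fold threshold left 1 hormone sample for BdbZIP74 and 2 for BdbZIP96.

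In alternatives chosen after seeing the data, the difference between 6 h and 1 h of ABA without a reference gene was -5.22 for BdbZIP52 and turned to -0.65 for BdbZIP74 and -0.29 for BdbZIP96. The other 21 of the 24 such values were unchanged. The causes were not tested. Leaving out 1 treatment or organ at a time moved none of the 12 medians by more than 1 SD of the wells.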
